A study of Rattus norvegicus with 74 samples.

Results

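The left ventricle and the red gastrocnemius of the same 7 exercise-trained rats were compared gene by gene. The 7 libraries of trained left ventricle (LV_ExT, rats 14, 17, 18, 25, 26, 27 and 28) were set against the trained skeletal muscle libraries (SM_ExT) with the same rat numbers, so 14 of the 74 libraries of the series were used, in 7 pairs. All animals were wild-type male Wistar Kyoto rats, 9 weeks old when tissue was taken, and all of them drank water with 8% deuterium oxide by volume. The trained rats ran on a motorised treadmill for 4 weeks from the age of 5 weeks, on 5 days of each week, with sessions that were built up to 60 min at 20 m/min, and were killed under isoflurane 24 h after the last session. LV is the dissected wall of the ventricle and SM the inner red portion of the gastrocnemius, a hindlimb muscle of mixed fibre types. Both are whole tissue, so their RNA comes from muscle cells and from every other cell type present. Sedentary rats (LV_Sed and SM_Sed, 7 pairs, placed on a treadmill that did not move) enter the last comparison only.

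Library kits differ between the tissues. LV libraries were made from 100 ng of RNA with an Illumina Ribo-Zero kit and SM libraries from 50 ng with a Zymo RiboFree kit, so for every difference below the effects of tissue and of kit cannot be told apart. Total counts were 54645657 to 75167777 per library in LV and 27775661 to 34339726 in SM. One LV library stood apart: that of rat 26 held the atrial genes Myl7 at 606 CPM (counts scaled to library size, by TMM), against 0.325 to 12.9 in the other 6, and Myl4 at 217 CPM, against 0.515 to 1.61. The fold changes of Myl7, Myl4, Sln, Nppa and Tbx5 are given with and without it, and counts over lists include it. Levels are CPM and are not divided by gene length, so they are compared between tissues for 1 gene and not between genes.

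Heart and limb muscle are both striated, but they build the sarcomere, the repeating contractile unit, from different members of the same gene families. Cardiac muscle cells are joined end to end at intercalated discs, beat under their own pacemaker and burn mainly fatty acids, whereas limb fibres are driven by motor nerves at neuromuscular junctions and range from slow oxidative to fast glycolytic. The heart is specified by factors such as Nkx2-5, Gata4 and Tbx5, and limb muscle by the myogenic factors Myod1, Myf5, Myog and Myf6 and by Pax7 in its stem cells.

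Of 14338 genes tested, 11224 differed between the tissues at an adjusted p under 0.05 in edgeR's paired quasi-likelihood test, 78.3% of those tested. Of these, 5627 (39.2%) were higher in LV and 5597 (39.0%) lower. Because most lists then hold many called genes, counts of genes past 2-fold, from a test against a log2 difference of 1, are given as well, those higher in LV first. It called 3725 genes, with 1603 (11.2%) higher in LV and 2122 (14.8%) lower. Counts in the lists below are to be read against these shares of all genes, and a list near them does not stand out. With library totals alone in place of TMM scaling the same test called 2066 higher and 1772 lower, and the median of all log2 fold changes moved from 0.016 to 0.213. A total of 717 genes differed by more than 16-fold, and for 8179 genes (57.0%) the ranges of the 2 tissues did not overlap. A tested gene at or near 0 in 1 tissue passed the filter on low counts through the other, which fixes its direction. Log2 fold changes are LV minus SM throughout, with an approximate standard error after ±. It is the size of the fold change divided by the square root of the test's F value. For genes at or near 0 counts in 1 tissue it can understate the error, and counting intervals or bounds are given for some of them. The plot of fold changes by gene list shows how far apart the groups described below lie.

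**Figure D1:**
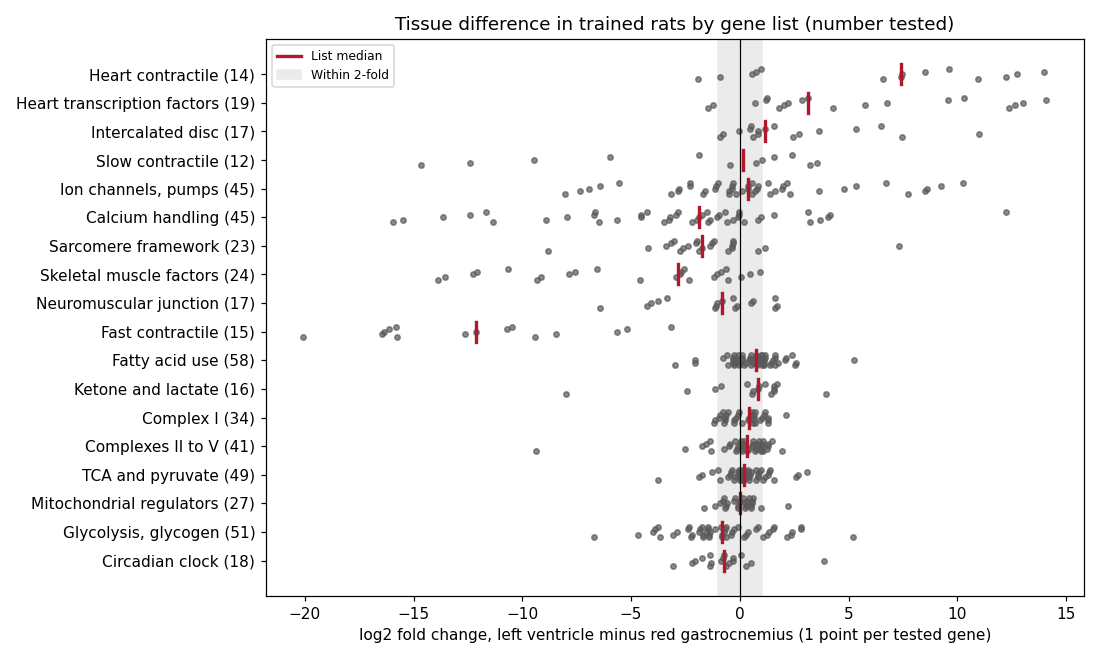
Log2 fold change (left ventricle minus red gastrocnemius, x axis) of each tested gene in 18 gene lists (rows, number tested in brackets), 1 point per gene; red bars are list medians and the grey band marks differences within 2-fold. Fast contractile genes have a median of -12.13 and heart contractile genes of 7.43, while the lists of mitochondrial energy use sit within 1 of zero.

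Among called genes with a mean of at least 5 CPM in the higher tissue, the 10 with the largest fold changes towards LV were Tnni3k, Nppb, Gpr22, Chrm2, Lrrc10, Nppa, Tbx20, Mybpc3, Gata5 and Tnni3. The 10 towards SM were Myh4, Actn3, Tnnc2, Myh2, Cacna1s, Tnni2, Mylpf, Cacng1, AABR07005775.1 and Mybpc1. Tnni3k, a kinase that binds cardiac troponin I, ranged over 157, 172 and 202 CPM in LV and 0 in every SM library, and was at least 11901-fold higher in LV. Myh4, the fast type IIb myosin heavy chain, ranged over 0, 0.0172 and 0.0949 CPM in LV and 20801, 39502 and 53305 CPM in SM (lowest, median and highest of 7 libraries). No library of one tissue reached the range of the other for either gene. Gpr22, a receptor without a known ligand, and Lrrc10, a Z-disc protein of the heart, had no count in SM and were at least 4348 and 3637-fold higher in LV. AABR07005775.1, a protein-coding gene without a name in the tables, ranged over 0.214, 0.281 and 0.710 CPM in LV and 11579.5, 14294 and 17723 CPM in SM.

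The promoters of 4 of these genes, 3 far higher in LV and 1 in SM, are printed because they hold matches to the motifs searched. Sequences are from RefSeq (build GRCr8, matched by symbol), the 250 bases before the annotated start, 5′ to 3′ on the gene's strand. Capitals mark matches on either strand to 5 motifs of muscle transcription factors. The MEF2 and CArG motifs were searched by their usual consensus. The E-box searched, which myogenic factors bind, was CAGCTG. For GATA factors the letters were AGATAA. The M-CAT motif, bound by TEAD factors, was CATTCC. No 2 marked motifs overlap in these 4 sequences.
Nppb (chr5:163699758-163700007, plus strand): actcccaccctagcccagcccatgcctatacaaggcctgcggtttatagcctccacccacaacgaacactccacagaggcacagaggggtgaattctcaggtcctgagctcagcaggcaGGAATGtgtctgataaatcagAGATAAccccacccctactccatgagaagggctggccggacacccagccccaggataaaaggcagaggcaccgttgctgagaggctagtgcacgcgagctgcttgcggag
Tnni3 (chr1:78342321-78342570, plus strand): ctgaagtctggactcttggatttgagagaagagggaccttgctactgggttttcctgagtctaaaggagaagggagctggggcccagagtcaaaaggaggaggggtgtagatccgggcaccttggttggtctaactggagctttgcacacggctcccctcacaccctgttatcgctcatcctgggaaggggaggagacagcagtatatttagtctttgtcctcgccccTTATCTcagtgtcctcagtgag
Mybpc3 (chr3:97550811-97551060, plus strand): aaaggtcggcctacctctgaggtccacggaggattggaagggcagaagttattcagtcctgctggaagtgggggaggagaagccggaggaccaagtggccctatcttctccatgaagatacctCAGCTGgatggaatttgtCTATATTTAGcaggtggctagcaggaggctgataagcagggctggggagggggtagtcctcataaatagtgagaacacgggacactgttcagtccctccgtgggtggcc
Myh4 (chr10:52421898-52422147, plus strand): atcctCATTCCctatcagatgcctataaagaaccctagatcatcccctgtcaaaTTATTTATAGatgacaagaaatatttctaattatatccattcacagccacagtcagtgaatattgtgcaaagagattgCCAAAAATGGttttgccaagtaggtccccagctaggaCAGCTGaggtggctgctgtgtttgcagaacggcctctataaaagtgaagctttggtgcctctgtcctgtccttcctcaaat
Nppb holds a GATA match 110 bases and an M-CAT match 131 bases before the start, and Tnni3 a GATA match 22 bases before it. Mybpc3 holds a MEF2 match at 109 and an E-box at 127 bases. Myh4 holds 4 of the 5 motifs, the E-box at 81, CArG at 118, MEF2 at 196 and M-CAT at 245 bases before the start. Of 12 promoters read in this way, 5 held no match to any of the 5 motifs, those of Tbx20, Chrm2, Tnni2, Tnnc2 and Actn3. Over 27457 promoters of that length, 1 per symbol, 3.07% held the MEF2 motif, 1.5% CArG, 11.9% the E-box, 10.0% GATA and 11.8% M-CAT. Among promoters of genes past 2-fold, the GATA motif was in 77 of 1030 (7.48%) higher in LV and 74 of 1406 (5.26%) lower, and the E-box in 147 (14.3%) and 220 (15.6%). In the same sets, MEF2 was in 15 (1.46%) higher in LV and 41 (2.92%) lower, and CArG in 9 (0.874%) and 24 (1.71%). M-CAT was in 112 of 1030 higher in LV and 147 of 1406 lower. Over the 10259 promoters of genes tested, 5.49% held the GATA motif, 12.8% the E-box, 1.57% MEF2, 1.2% CArG and 9.72% M-CAT. Matches are given as a description of these letters only.

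Genes of heart contractile proteins were mostly higher in LV. Of 14 genes on this list, 11 were higher and 1 lower in LV, and 9 (64.3%, against 11.2% of all genes) were past 2-fold, all higher. Members near 0 in SM, such as Tnni3 and Mybpc3, passed the filter on low counts through LV. That fixes their direction, so their part in these counts is a description. Myh6, the fast cardiac myosin heavy chain, ranged over 14436, 17449 and 20852 CPM in LV and 2.77, 9.72 and 13.3 CPM in SM, with a log2 fold change of 10.94 ± 0.34 (edgeR adjusted p = 5.28e-12). Tnni3 and Tnnt2, the cardiac inhibitory and tropomyosin-binding troponins, had log2 fold changes of 12.73 ± 0.24 and 9.62 ± 0.15. Tnni3 ranged over 1578, 1817 and 2145 CPM in LV and 0.131, 0.203 and 0.571 CPM in SM. Mybpc3, cardiac myosin-binding protein C, ranged over 1588, 1805 and 2128 CPM in LV and 0, 0.0677 and 0.254 CPM in SM. For all 4 genes the tissues were far apart, with every LV library above every SM library. Ranges did not overlap for 57.0% of all genes.

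Cardiac actin Actc1 had 3679, 4647 and 4863 CPM in LV and 17.3, 27.1 and 38.6 CPM in SM, a difference of 7.44 ± 0.19, while skeletal actin Acta1 had 398, 714 and 919 CPM in LV and 21419, 23772 and 29805 CPM in SM, a difference of -5.19 ± 0.20. Each tissue thus held both actin mRNAs, with the cardiac one higher in LV and the skeletal one higher in SM. The atrial light chain Myl7 had 3 counts in all over the SM libraries and its log2 fold change was 12.24 ± 0.28, and 9.19 ± 0.36 without rat 26. Myl4, the other atrial light chain, did not pass the test over 7 pairs (-1.94 ± 1.17, edgeR adjusted p = 0.172), whereas without rat 26 it was -2.71 ± 0.22 (adjusted p = 2.87e-07), lower in LV. DESeq2 called Myl4 lower in LV over all 7 pairs as well (-2.24, DESeq2 adjusted p = 0.00597). Csrp3, a Z-disc protein, did not pass either (0.58 ± 0.29), though it did as higher in LV without rat 14 (0.75) or rat 18 (0.76), with library totals alone (0.78, edgeR adjusted p = 0.0186) and in DESeq2 (0.58, DESeq2 adjusted p = 0.0437).

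Fast-fibre genes gave the mirror image. All 15 tested were lower in LV and past 2-fold, against 14.8% of all genes past 2-fold on that side, with a median log2 fold change of -12.13. Members near 0 in LV, such as Myh4, Myh2, Actn3 and Mylpf, passed the filter on low counts through SM. That fixes their direction, so their part in this count is a description. Myh2, the fast type IIa myosin, ranged over 0.0814, 0.192 and 0.345 CPM in LV and 10123, 13266 and 17509 CPM in SM. The fast troponins Tnni2, Tnnc2 and Tnnt3 differed by -15.79 ± 0.21, -16.35 ± 0.29 and -12.13 ± 0.22. Actn3, the fast-fibre alpha-actinin of the Z-disc, ranged over 0, 0.0443 and 0.0862 CPM in LV and 1524, 3575 and 5677 CPM in SM, and Mylpf, the fast regulatory light chain, over 0.0407, 0.0591 and 0.158 CPM in LV and 3154, 4535 and 6220.2 CPM in SM. The least different member, Myoz3, a Z-disc protein, still differed by -3.15 ± 0.07. No fast-fibre gene had a LV library within the SM range, and 57.0% of all genes also had ranges that did not overlap.

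Genes shared by slow fibres and heart went in both directions. Of 12 tested, 6 were higher and 6 lower in LV, with 4 (33.3%, against 11.2% of all genes) and 5 (41.7%, against 14.8%) past 2-fold. The slow regulatory light chain Myl2 ranged over 4166, 5055 and 6044 CPM in LV and 270.5, 496 and 691 CPM in SM (3.54 ± 0.22), and Tnnc1, slow and cardiac troponin C, over 1165, 1329.5 and 1652 CPM in LV and 142, 335 and 472 CPM in SM (2.39 ± 0.26). Myh7, the slow myosin heavy chain, went the other way, with 2034, 2858 and 3911 CPM in LV and 5822, 11426 and 14289 CPM in SM (-1.88 ± 0.22). Slow isoforms with a separate cardiac counterpart were near zero in LV. Tnni1 ranged over 0.393, 0.804 and 1.90 CPM in LV and 394, 827 and 1071 CPM in SM, Tnnt1 over 0.0814, 0.224 and 0.453 CPM in LV and 679, 1552 and 2023 CPM in SM, and the slow myosin-binding protein Mybpc1 over 0, 0.0144 and 0.876 CPM in LV and 3040.2, 3563 and 3901 CPM in SM. All 3 lay below every SM library, where 57.0% of all genes had ranges that did not overlap. The 14 libraries for these contractile genes are drawn in the plot of contractile genes.

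**Figure D2:**
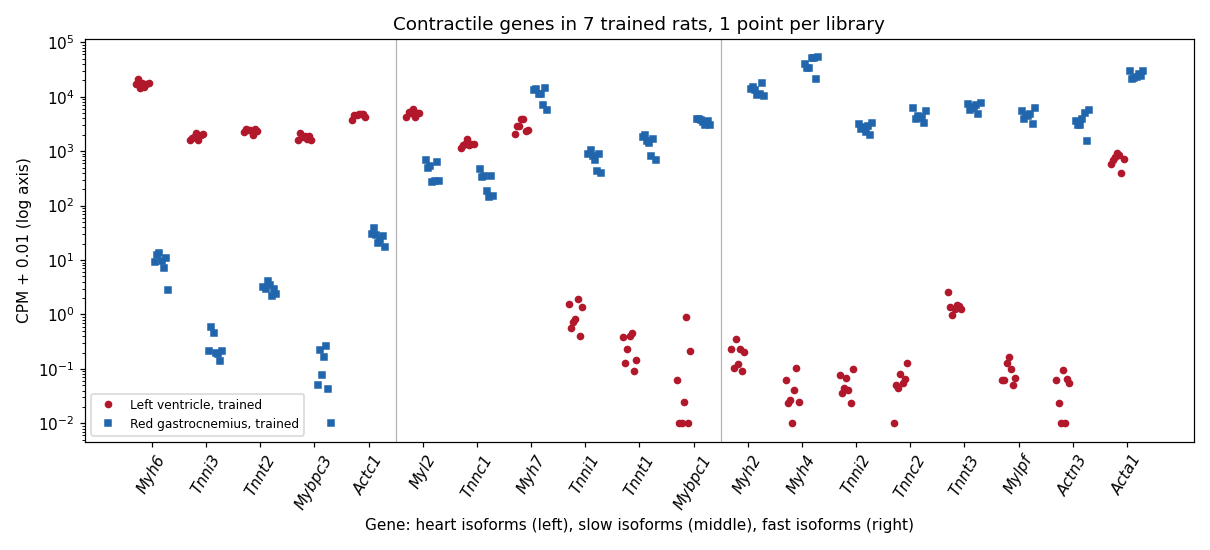
CPM plus 0.01 on a log axis for 19 contractile genes, 1 point per library, with red circles for the left ventricle and blue squares for the red gastrocnemius of the 7 trained rats. Heart isoforms on the left are all at or above 1578 CPM in the ventricle, fast isoforms on the right are at or above 1524 CPM in muscle, and Myh7 is higher in muscle by 1.88 on the log2 scale.

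The sarcomere framework, which holds filaments in register, was mostly higher in SM. Of 23 genes, 3 were higher and 19 lower in LV, and 15 (65.2%) were past 2-fold lower. Ttn, the giant spring titin, did not pass the test (60258, 62121 and 70323 CPM in LV and 55610.3, 83740.3 and 101853 CPM in SM; -0.34 ± 0.17), and passed as lower in LV without rat 27 (-0.42), without pairing by rat (-0.36, edgeR adjusted p = 0.0313) and in DESeq2 (-0.34, DESeq2 adjusted p = 0.000858). Myot, a Z-disc protein, ranged over 1.42, 2.07 and 3.69 CPM in LV and 874, 964 and 1149.9 CPM in SM (-8.81 ± 0.20). Fhl2 was the 1 member past 2-fold higher in LV (678, 788 and 959 CPM in LV and 3.13, 4.25 and 7.90 CPM in SM; 7.33 ± 0.21), while its relatives Fhl1 and Fhl3 were lower (-3.15 ± 0.17 and -4.22 ± 0.10). These FHL proteins are LIM-domain adaptors of the sarcomere. Neb, nebulin, the ruler of the thin filament, ranged over 10.2, 10.7 and 24.8 CPM in LV and 15747, 21244 and 23669 CPM in SM, and its shorter relative Nebl over 207, 217 and 273 CPM in LV and 1.45, 2.41 and 3.55 CPM in SM.

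Several transcription factors that specify one tissue had no count in the other. Of 19 heart factors tested, 17 were higher and 2 lower in LV, and 14 (73.7%, against 11.2% of all genes) were past 2-fold higher. Tbx20, Gata5, Nkx2-5 and Irx4 had no count in any of the 7 SM libraries, and were at least 3009.6, 1422, 1116 and 924-fold higher in LV (bounds set by 3 counts over the SM group). These genes passed the filter on low counts through LV alone, which fixes their direction, so their part in the counts above is a description. Gata4 ranged over 38.9, 44.9 and 48.05 CPM in LV and 0, 0.0339 and 0.125 CPM in SM and Hand2 over 6.26, 6.66 and 7.85 CPM in LV and 0, 0.0714 and 0.155 CPM in SM. Tbx5 had 1 count in all over the SM libraries against 8.06 to 13.6 CPM in LV, a ratio of 1927-fold (95% counting interval 346 to 76106). The 2 factors lower in LV were Tbx2 and Tbx3 (-1.23 ± 0.12 and -1.48 ± 0.18), repressors that mark non-chamber myocardium.

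Of 24 skeletal muscle factors tested, 1 was higher and 21 lower in LV, and 17 (70.8%, against 14.8%) were past 2-fold lower. Myod1, Myf5, Pax7 and Lbx1 had no count in any LV library, and were at least 6149.8, 262, 670.4 and 4951-fold lower there. They passed the filter on low counts through SM alone, so their part in the counts above is a description too. In SM, Myod1 ranged over 15.4, 41.8 and 61.4 CPM and Pax7, the satellite cell factor, over 3.15, 4.27 and 4.89 CPM. Myog, which drives fusion into fibres, had 1 count in all over the LV libraries and 21.4 to 26.7 CPM in SM. Tbx15, a T-box factor, ranged over 0.0271, 0.0886 and 0.379 CPM in LV and 77.9, 91.8 and 98.5 CPM in SM (-9.15 ± 0.28). Mef2 genes differed among themselves: Mef2c and Mef2d were lower in LV (-2.55 ± 0.09 and -1.19 ± 0.08), and Mef2a did not pass the test (0.05 ± 0.06) except with library totals alone, as higher (0.24). Prox1, a factor of slow fibres and of heart, was the 1 member higher in LV (0.92 ± 0.08).

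Genes that record position along the body axis were higher in SM. Among 39 Hox genes in the tables, a group chosen after its values were seen, 24 were tested and 23 were lower in LV and past 2-fold. Those at or near zero in LV passed the filter on low counts through SM, which fixes their direction, so that count is a description. Hoxc10 ranged over 0 in every LV library and 20.3, 24.6 and 29.9 CPM in SM, at least 4028-fold lower in LV, Hoxa9 over 0 in every LV library and 5.03, 5.82 and 6.75 CPM in SM and Hoxc11 over 0 in every LV library and 7.31, 9.68 and 10.9 CPM in SM. The exception was Hoxb2, at 0.0517, 0.244 and 0.281 CPM in LV and 0.101, 0.164 and 0.290 CPM in SM (0.12 ± 0.37). Summed over the family, CPM was 0.896 to 2.19 per LV library and 112 to 153 per SM library. En1, a homeobox gene of the ventral limb, had no count in LV and 5.28 to 8.20 CPM in SM.

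Excitation-contraction coupling, the step from membrane voltage to calcium release, used different family members in each tissue. Of 45 calcium genes tested, 10 were higher and 31 lower in LV, with 7 (15.6%, against 11.2% of all genes) and 25 (55.6%, against 14.8%) past 2-fold. The cardiac calcium release channel Ryr2 ranged over 3292, 3429 and 4215 CPM in LV and 0.143, 0.439 and 1.76 CPM in SM (12.22 ± 0.40), and the skeletal channel Ryr1 over 0.281, 0.396 and 0.664 CPM in LV and 4448, 6156 and 7116 CPM in SM (-13.62 ± 0.24). The voltage sensors divided in the same way: Cacna1c, the cardiac L-type channel, had 155, 178 and 226 CPM in LV and 8.35, 11.6 and 12.5 CPM in SM, and Cacna1s, the skeletal one, had 0, 0 and 0.0443 CPM in LV and 794, 966 and 1082 CPM in SM. Both skeletal genes were near zero in LV, whereas SM kept a measurable level of Cacna1c.

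Other parts of the skeletal voltage-sensor complex were lower in LV too: Cacnb1 had a log2 fold change of -7.94 ± 0.11, Stac3 of -11.36 ± 0.39, and Cacng1 was lower by at least 19206-fold, with no count in LV. The calcium-binding calsequestrins split into Casq2, higher in LV (3.23 ± 0.14), and Casq1, lower (-5.65 ± 0.16), and the sodium-calcium exchangers into Slc8a1, higher (4.14 ± 0.07), and Slc8a3, lower (-6.70 ± 0.16). Atp2a2, the slow and cardiac calcium pump, ranged over 6372, 7389 and 7973 CPM in LV and 1386, 2774 and 3468 CPM in SM (1.55 ± 0.16). Micropeptides that tune such pumps also split, with Strit1 higher (3.13 ± 0.27) and Mrln at no count in LV against 5.04 to 10.9 CPM in SM. Sln, another of them, was lower (-3.47 ± 1.21, edgeR adjusted p = 0.0347), with the rat 26 ventricle at 15.1 CPM and the other 6 at 0.0401 to 0.438. Without that rat it was -4.58 ± 0.46, and the call was lost without any 1 of the other 6 rats or without pairing by rat.

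Of 45 ion channel and pump genes, 21 were higher and 19 lower in LV, with 15 (33.3%, against 11.2% of all genes) and 12 (26.7%, against 14.8%) past 2-fold. Scn4a, the sodium channel of limb fibres, ranged over 0.862, 1.25 and 2.49 CPM in LV and 299, 366 and 414 CPM in SM (-8.03 ± 0.22). Repolarising potassium channel genes of the heart were among those higher in LV, Kcnip2 by 9.23 ± 0.18, Kcnj5 by 10.28 ± 0.21 and Kcnq1 by 4.77 ± 0.12. Clcn1, the chloride channel that stabilises limb fibres, ranged over 0.558, 0.948 and 1.54 CPM in LV and 104, 124 and 135 CPM in SM (-6.94 ± 0.21). The plot of related genes shows 14 pairs with members on opposite sides of zero.

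**Figure D3:**
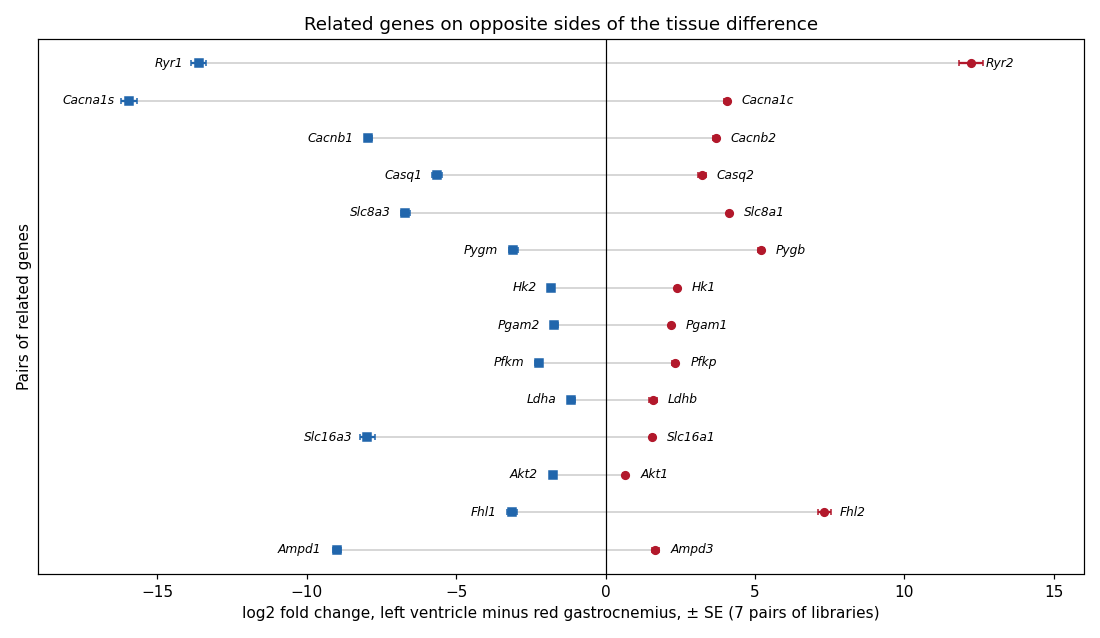
Log2 fold change (left ventricle minus red gastrocnemius, x axis, ± SE over 7 pairs of libraries) for 14 pairs of related genes, 1 pair per row, chosen after their values were seen because the members lie on opposite sides of zero. Red circles are the members higher in the ventricle and blue squares those higher in muscle, and Ryr2 at 12.22 and Ryr1 at -13.62 lie farthest apart.

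Junction genes divided by tissue. Of 17 intercalated disc genes, 14 were higher and 2 lower in LV, with 8 (47.1%) past 2-fold, all higher. The desmosomal genes Dsg2 (49.5, 52.7 and 65.5 CPM in LV and 0, 0 and 0.169 CPM in SM) and Dsp (1321, 1625 and 1687 CPM in LV and 7.27, 8.59 and 12.2 CPM in SM) differed by 10.97 ± 0.30 and 7.43 ± 0.14. Cdh2, N-cadherin, differed by 6.50 ± 0.17, and Gja1, the gap junction connexin 43, by 3.62 ± 0.07 with 160.1, 177 and 221 CPM in LV and 12.6, 13.8 and 18.98 CPM in SM. No SM library reached the LV range for these 4 genes, and ranges did not overlap for 57.0% of all genes. Of 17 neuromuscular junction genes, 5 were higher and 11 lower in LV, with 1 (5.88%, against 11.2% of all genes) and 5 (29.4%, against 14.8%) past 2-fold. The acetylcholine receptor subunits Chrna1, Chrnb1, Chrnd and Chrne were lower in LV (-4.28 ± 0.34, -6.45 ± 0.16, -3.33 ± 0.36 and -4.10 ± 0.27), as was Ache, which breaks down the transmitter (-3.77 ± 0.10). Their organiser Musk ranged over 2.06, 2.64 and 2.90 CPM in LV and 3.40, 5.65 and 8.80 CPM in SM (-1.15 ± 0.14), and Agrn was higher in LV (0.51 ± 0.08).

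The 2 natriuretic peptides of the heart were at or near zero in SM. Of 18 natriuretic and load-responsive genes tested, 7 were higher and 8 lower in LV, with 5 past 2-fold each way. That is 27.8% each way, against 11.2% of all genes higher and 14.8% lower. Nppb, which encodes B-type natriuretic peptide, ranged over 28.9, 74.7 and 173 CPM in LV and 0 in every SM library, at least 5705-fold higher in LV. Nppa, the atrial natriuretic peptide gene, ranged over 30.9, 62.01 and 913 CPM in LV and had 2 counts in all over the SM libraries, a ratio of 22959-fold (95% counting interval 6356 to 189577). Its log2 fold change was 14.13 over 7 pairs and 13.02 ± 0.18 without rat 26, whose library is part of that ratio. Its highest library was again rat 26 (913 CPM), followed by rat 18 (426), and the other 5 were at or below 74.04. Corin, the protease that activates these peptides, ranged over 51.1, 68.4 and 98.9 CPM in LV and 0, 0.0714 and 0.197 CPM in SM. Nppc, the C-type peptide gene, was the reverse, with 0, 0.0862 and 0.199 CPM in LV and 1.82, 2.75 and 3.56 CPM in SM (-5.28 ± 0.48). Ankrd1, a stretch-responsive protein, ranged over 770.1, 1068 and 1669 CPM in LV and 3.28, 6.44 and 10.03 CPM in SM, while its relatives Ankrd2 and Ankrd23 were lower in LV (-10.05 ± 0.38 and -5.67 ± 0.24).

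Of 24 receptor genes tested, 12 were higher and 10 lower in LV, with 8 (33.3%, against 11.2% of all genes) and 4 (16.7%, against 14.8%) past 2-fold. Chrm2, the muscarinic receptor through which the vagus slows the heart, had 161, 174 and 211 CPM in LV and 1 count in all over the SM libraries, a ratio of 36484-fold (95% counting interval 6548 to 1441030). Adrb1, a beta-adrenergic receptor, ranged over 9.59, 11.2 and 12.5 CPM in LV and 0.0677, 0.236 and 0.524 CPM in SM (5.51 ± 0.26). Adra1b and Adra1a, alpha-1 receptors, were higher in LV (7.98 ± 0.29 and 2.54 ± 0.07). Of 21 genes of secreted muscle factors, 9 were higher and 9 lower in LV, with 6 (28.6%, against 11.2%) and 5 (23.8%, against 14.8%) past 2-fold. Among them, Fgf16 and Bdnf were higher in LV (5.01 ± 0.21 and 3.96 ± 0.25), and Ostn, musclin, had no count in LV and 0.360 to 3.76 CPM in SM.

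Of 21 genes that set muscle mass, 7 were higher and 11 lower in LV, with none past 2-fold higher and 7 past 2-fold lower (33.3%, against 14.8% of all genes). Mstn, myostatin, which restrains muscle growth, ranged over 0.129, 0.438 and 0.669 CPM in LV and 1.61, 4.39 and 10.1 CPM in SM (-3.48 ± 0.41), and its receptor Acvr2b differed by -2.57 ± 0.14. The ubiquitin ligases of muscle wasting differed from each other: Trim63 was lower in LV (36.3, 45.4 and 55.1 CPM in LV and 96.2, 109 and 123 CPM in SM; -1.31 ± 0.10), and Fbxo32 did not pass the test (92.5, 96.01 and 132 CPM in LV and 83.8, 111 and 147 CPM in SM; -0.09 ± 0.08). Igf2 was lower in LV (-2.28 ± 0.18), while Igf1, its growth-promoting relative, did not pass (0.05 ± 0.12).

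Energy metabolism differed by smaller amounts. Fatty acid genes leaned to LV: of 58 tested, 37 were higher and 13 lower in LV, with 13 (22.4%) and 3 (5.17%) past 2-fold and a median of 0.75, against 0.016 over all genes. Lpl, which frees fatty acids from circulating fat, ranged over 1663, 1796 and 2235 CPM in LV and 217, 312 and 429 CPM in SM (2.57 ± 0.11), and the carrier Fabp3 over 1191, 1384 and 1779 CPM in LV and 161, 301 and 339 CPM in SM (2.53 ± 0.16). Beta-oxidation enzymes Acads, Echs1, Hadhb and Acaa2 were higher in LV, with log2 fold changes of 1.75, 1.60, 1.44 and 1.51, whereas Acadm, the medium-chain enzyme, did not pass the test (-0.06 ± 0.11). Members lower in LV past 2-fold were Acsl6, Ucp3 and Dgat2 (-2.98 ± 0.11, -2.06 ± 0.35 and -2.05 ± 0.07), which activate, accompany or store fatty acids. Of 16 ketone and lactate genes, 11 were higher and 4 lower in LV, with 6 (37.5%, against 11.2% of all genes) and 2 (12.5%, against 14.8%) past 2-fold. Oxct1, which lets a tissue burn ketone bodies, ranged over 936, 1174 and 1272 CPM in LV and 312, 392 and 481 CPM in SM (1.57 ± 0.10).

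Respiratory chain and citric acid cycle genes lay closer to the middle. Of 34 nuclear-encoded complex I genes, 18 were higher and 12 lower in LV, with 4 (11.8%) and 1 (2.94%) past 2-fold. Of 41 genes of complexes II to V, 21 were higher and 10 lower in LV, with 5 (12.2%) past 2-fold each way. Of 49 citric acid cycle and pyruvate genes, 23 were higher and 12 lower in LV, with 8 (16.3%) and 4 (8.16%) past 2-fold. Over all genes, 11.2% were past 2-fold higher and 14.8% lower. The share called was 88.2% in the complex I list, 75.6% in complexes II to V and 71.4% in the last list, against 78.3% over all genes. Atp5f1b, the catalytic subunit of ATP synthase, ranged over 2893, 3129 and 3508 CPM in LV and 1877, 2062 and 2319.9 CPM in SM (0.62 ± 0.10). Cs, citrate synthase, often used to gauge mitochondrial content, did not pass the test (435, 482 and 563 CPM in LV and 432, 477 and 484 CPM in SM; 0.06 ± 0.08), nor did Cox4i1, a subunit of cytochrome oxidase (0.08 ± 0.09). With library totals alone both passed as higher in LV (0.25 and 0.28). Members of 1 complex could differ in direction, as with Ndufb4 (1.32 ± 0.11) and Ndufa13 (-1.19 ± 0.08), both subunits of complex I. Pdk1 was higher in LV and Pdk4 lower (2.57 ± 0.07 and -1.74 ± 0.35), and both encode kinases that shut off pyruvate dehydrogenase.

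Of 27 regulators of mitochondrial gene expression, 12 were higher and 10 lower in LV, with 1 past 2-fold each way. That is 3.70% each way, against 11.2% of all genes higher and 14.8% lower. Ppargc1a, the coactivator PGC-1alpha, ranged over 24.5, 30.9 and 39.03 CPM in LV and 31.6, 36.97 and 43.2 CPM in SM (-0.27 ± 0.09, a call lost with library totals alone), and Tfam, which packages mitochondrial DNA, over 14.99, 18.6 and 20.02 CPM in LV and 24.9, 30.3 and 34.5 CPM in SM (-0.73 ± 0.10). The nuclear receptors of the ERR family differed among themselves, Esrrb at 2.23 ± 0.15, Esrra at 0.55 ± 0.09 and Esrrg at -1.15 ± 0.11. The median of the 27 regulators was 0.02, near the 0.016 of all genes.

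Glycolysis and glycogen genes leaned to SM. Of 51 tested, 15 were higher and 33 lower in LV, with 10 (19.6%) and 23 (45.1%) past 2-fold. Genes of the glycolytic backbone lower in LV included Eno3 (132, 161 and 224 CPM in LV and 2113, 2724 and 3135 CPM in SM; -4.01 ± 0.15), Pfkm (-2.23 ± 0.11) and Ldha (-1.14 ± 0.13). Pygm, muscle glycogen phosphorylase, ranged over 426, 494 and 556 CPM in LV and 3205, 4667 and 5486 CPM in SM (-3.09 ± 0.14), and the regulatory subunit of its kinase, Phka1, differed by -3.65 ± 0.10. Isoforms higher in LV included Pygb, which ranged over 227, 282 and 302 CPM in LV and 6.32, 7.55 and 8.16 CPM in SM (5.20 ± 0.09), with Hk1 at 2.39 ± 0.07, Pfkp at 2.33 ± 0.10, Pgam1 at 2.18 ± 0.06 and Ldhb at 1.58 ± 0.14. Lactate carriers followed, with Slc16a1 higher in LV (1.57 ± 0.09) and Slc16a3, the exporter of glycolytic fibres, at 0.517, 1.09 and 1.42 CPM in LV and 168, 225 and 323 CPM in SM (-7.97 ± 0.25).

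Of 17 oxygen and phosphate store genes, 10 were higher and 5 lower in LV, with 4 (23.5%, against 11.2% of all genes) and 3 (17.6%, against 14.8%) past 2-fold. Mb, myoglobin, ranged over 4785, 5888 and 6761 CPM in LV and 1846, 2229 and 3574 CPM in SM (1.27 ± 0.16). Ckm, the cytosolic muscle creatine kinase, ranged over 810, 906 and 970.1 CPM in LV and 7764, 9439 and 12695 CPM in SM (-3.47 ± 0.15), and its mitochondrial partner Ckmt2 over 1713, 2082 and 2315 CPM in LV and 1201, 1404 and 1832 CPM in SM (0.49 ± 0.10). AMP deaminases split into Ampd1, the fibre isoform, lower in LV (-9.01 ± 0.13), and Ampd3, higher (1.67 ± 0.12). The counts of 4 genes, singled out after their values were seen, are uncertain, because near-identical copies can split a gene's reads and how such reads were counted is not given in the sources used here. These were Aldoa, with an entry at 1.23 to 1.90 CPM in LV and 0.914 to 1.82 in SM, Atp5me, at 0.0266 to 0.241 in LV and 58.9 to 86.4 in SM, Ndufs6, 1 of the complex I genes counted above, at 0.361 to 0.637 in LV and 0 to 0.309 in SM (2.15 ± 0.51), and Etfb, at 28.4 to 35.7 in LV and 0.507 to 1.25 in SM. The Aldoa entry counted in the glycolysis list was another. That entry was called higher in LV at a mean of at least 5 CPM in either tissue, with a larger fold change than Pygb.

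The mitochondrial genome took 43.8% ± 2.83 of counts in LV and 31.2% ± 3.57 in SM (SD, n = 7 each), higher in LV in 7 of 7 rats by a mean of 12.5 percentage points (exact sign-flip permutation test over pairs, two-sided, p = 0.0156, adjusted p over 11 library measures = 0.0286, and 0.0156 is the smallest p that 7 pairs allow). The difference lay in ribosomal RNA, which took 37.8% ± 2.40 in LV and 24.3% ± 3.24 in SM, while mRNAs took 5.96% ± 0.623 and 6.89% ± 1.18 (higher in LV in 2 of 7 rats, exact permutation adjusted p = 0.215). The 2 rRNA genes went in opposite directions, AY172581.24 at 1.21 ± 0.20 and AY172581.9 at -1.23 ± 0.19. With rRNA and tRNA left out of the total, the mitochondrial share no longer passed the test (exact permutation adjusted p = 0.653). Both kits remove ribosomal RNA, and their part in this difference cannot be told apart from that of tissue.

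The 13 mRNAs of that genome did not move together. Mt-co1 and Mt-co2, subunits of cytochrome oxidase, were higher in LV (0.43 ± 0.17 and 0.59 ± 0.16), Mt-co3 and Mt-nd3 did not pass (0.16 ± 0.18 and 0.29 ± 0.23), and the other 9 were lower, all past 2-fold. With library totals alone, Mt-co3 and Mt-nd3 passed as higher in LV (0.35 and 0.48, edgeR adjusted p = 0.0388 and 0.0375), and they did so without rat 14 as well (0.34 and 0.51). The call for Mt-co1 was lost without any 1 of rats 17, 18, 25, 26, 27 and 28, at values of 0.38 to 0.43. Mt-nd4, a complex I subunit, ranged over 168, 304 and 578 CPM in LV and 5297, 6515 and 9567 CPM in SM (-4.44 ± 0.27), and Mt-nd6, the 1 mRNA read from the light strand, over 25.03, 29.99 and 47.01 CPM in LV and 1392, 1838 and 2336 CPM in SM (-5.88 ± 0.14). Mt-cyb, of complex III, differed by -2.97 ± 0.20 and Mt-atp6, of ATP synthase, by -2.39 ± 0.20. These mRNAs are cut from long shared precursors, yet their tissue differences ran from -5.88 to 0.59, as the plot of mitochondrial mRNAs shows.

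**Figure D4:**
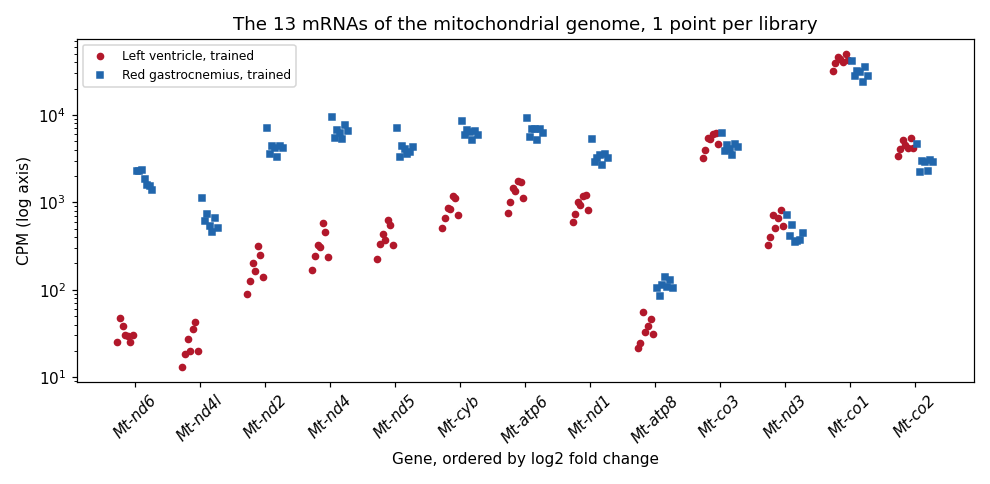
CPM on a log axis for the 13 mRNAs of the mitochondrial genome, ordered by log2 fold change, 1 point per library of the 7 trained rats (red circles left ventricle, blue squares red gastrocnemius). The groups are apart for the 9 genes on the left, up to Mt-atp8 at -1.70, and overlap for Mt-co1, Mt-co2, Mt-co3 and Mt-nd3.

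Counts on short RNA genes differed by class. The 444 miRNA genes of the tables together had 26 counts in LV_ExT and 9370 in SM_ExT. The 17 that were tested had no count in any LV library and passed the filter on low counts through SM alone, which fixes their direction, so their calls are a description. The sequences of 4 are shown because they are textbook miRNAs of striated muscle and heart. They are mature sequences from RefSeq (GRCr8, 14 of the 17 genes matched by symbol), with the seed, bases 2 to 8 from the 5′ end, in capitals.
rno-miR-1b: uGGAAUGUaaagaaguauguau
rno-miR-206-3p: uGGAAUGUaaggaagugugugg
rno-miR-133b-3p: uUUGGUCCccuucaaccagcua
rno-miR-208b-3p: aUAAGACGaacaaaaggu
The first 2 share 1 seed, and the other two have seeds of their own. Mir1b ranged over 6.42, 9.57 and 14.3 CPM in SM, Mir206 over 0.271, 0.608 and 0.928, Mir133b over 3.66, 6.45 and 7.52, and Mir208b over 0.236, 0.464 and 1.22. Mir208b lies in an intron of Myh7, which LV held at 2034 to 3911 CPM. These counts are reads over miRNA genes in total-RNA libraries and do not measure mature miRNAs.

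The 22 mitochondrial tRNA genes had 0 counts in LV and 10754 in SM. Of 47 snoRNA genes tested, 31 were lower and 9 higher in LV, yet as a class snoRNA took more of the nuclear-encoded counts in LV (0.0316% ± 0.00518) than in SM (0.0186% ± 0.00291). Small Cajal body RNA took 0.0307% ± 0.00325 in LV and 0.02001% ± 0.00235 in SM, with 2 genes higher and 3 lower in LV of 7 tested. Of 11 snRNA genes, 9 were lower and 2 higher in LV. Among the genes lower in LV, 13 snoRNA and 6 snRNA genes had no count in any LV library, so the filter on low counts fixes their direction too. Nuclear ribosomal RNA genes took 0.0181% ± 0.00651 of nuclear-encoded counts in LV and 0.456% ± 0.430 in SM, where rats 26 and 28 were highest at 1.20% and 0.934% (lower in LV in 7 of 7 rats, exact permutation adjusted p = 0.0286). Long non-coding RNA took 0.881% ± 0.0209 in LV and 0.631% ± 0.0143 in SM (7 of 7 rats, exact permutation adjusted p = 0.0286), and protein-coding genes 98.3% in both. H19, an imprinted non-coding RNA, ranged over 0.664, 5.40 and 8.36 CPM in LV and 1149, 1794 and 2107 CPM in SM (-8.76 ± 0.52). For these classes, too, kit and tissue cannot be told apart.

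Levels of some genes differed widely between rats, and whether the spread differed by tissue was not tested. The clock genes Nr1d1 and Per2, picked after their values were seen, varied by rat in both tissues. Nr1d1, the clock repressor REV-ERB alpha, stood at 19.9 and 19.7 CPM in the LV of rats 17 and 18, at 8.17 in rat 14 and at 2.05 to 3.81 in the other 4. In SM the same rats gave 65.2, 82.8 and 24.5 CPM, and the other 4 gave 10.7 to 20.5. Per2 was lowest in rats 17 and 18 in both tissues (7.59 and 9.14 CPM in LV, 11.4 and 16.1 in SM). The groups overlapped for both genes, yet Nr1d1 and Per2 were lower in LV than in SM within every rat, with log2 fold changes of -2.19 ± 0.15 and -0.62 ± 0.07. The call for Per2 was lost without pairing by rat (edgeR adjusted p = 0.112). Of 18 clock genes tested, 3 were higher and 14 lower in LV, with 1 (5.56%, against 11.2% of all genes) and 7 (38.9%, against 14.8%) past 2-fold. The labels used here give no hour of the day for the dissection of a rat.

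Fibre-type genes varied between SM libraries. Myh7 was lowest in rats 26 and 28 (6923 and 5822 CPM) and 11018 to 14289 in the other 5, and the slow genes Tnni1, Tnnt1 and Tpm3 were lowest in the same 2 rats. Actn3 was highest there (4924 and 5677 CPM) and lowest in rat 27 (1524 CPM), which also had the lowest Myh4 (20801 CPM, against 33142 to 53305). In LV these rats did not stand apart for Myh7. Pdk4 and Ucp3, which respond to fatty acid supply, were highest in the SM of rats 17 and 18 (Pdk4 509 and 505 CPM, other rats 94.8 to 256), with LV at 40.2 to 91.2 CPM. The plot of levels by rat shows both tissues of each animal.

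**Figure D5:**
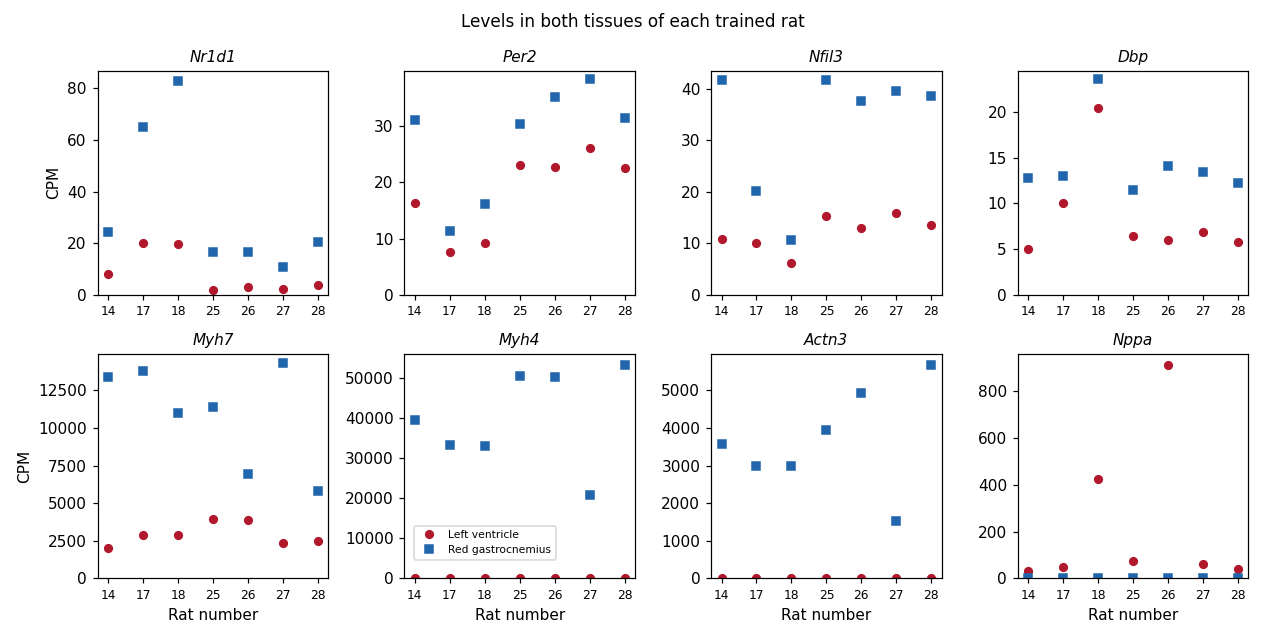
CPM of 8 genes in the left ventricle (red circles) and red gastrocnemius (blue squares) of each trained rat, with rat numbers on the x axis and linear y axes that start at 0. Nr1d1 is high and Per2 low in rats 17 and 18 in both tissues, Myh7 in muscle is lowest in rats 26 and 28, and Nppa in the ventricle is highest in rat 26 at 913 CPM.

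Markers of other cell types differed in both directions. In bulk samples, fewer cells of a type and less RNA per cell cannot be told apart. Of 22 immune genes tested, 18 were higher and 1 lower in LV, with 8 and 1 past 2-fold. Among them was Ptprc, the leukocyte antigen CD45, at 12.9, 17.4 and 23.1 CPM in LV and 6.16, 7.09 and 9.06 CPM in SM (1.28 ± 0.10), and their summed level was 176 to 256 CPM in LV and 99.2 to 131 in SM. Of 21 endothelial genes, 7 were higher and 6 lower in LV, with none past 2-fold higher and 2 past 2-fold lower. Pecam1 stood at 0.79 ± 0.07 but Cdh5 at -0.52 ± 0.10, both junction proteins of the same cells. Of 18 fibroblast genes, 7 were higher and 6 lower in LV, with 3 and 4 past 2-fold. The share called in either direction was 86.4% in the immune, 61.9% in the endothelial and 72.2% in the fibroblast list, against 78.3% of all genes. Tcf21, a factor of cardiac fibroblasts, ranged over 2.47, 3.17 and 3.88 CPM in LV and 0, 0 and 0.109 CPM in SM, and Col1a1, fibrillar collagen, over 82.9, 133 and 291 CPM in LV and 706, 1429.9 and 2434 CPM in SM (-3.16 ± 0.37).

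Tendon genes were mostly higher in SM: of 9, 6 were lower in LV, all past 2-fold, and 1 was higher, and Thbs4 stood at 0.482, 1.71 and 13.7 CPM in LV and 36.02, 126 and 172 CPM in SM (-5.45 ± 0.80). Of 9 nerve and Schwann cell genes, 2 were higher and 4 lower in LV, with 1 and 3 past 2-fold. Red cell genes were higher in LV in 5 of 6 tested and past 2-fold in 3, with the globin Hbb-b1 at 140.5, 207 and 278 CPM in LV and 38.8, 53.6 and 94.2 CPM in SM. Of 12 mural cell genes, 2 were higher and 6 lower in LV, with 0 and 2 past 2-fold, and the smooth muscle actin Acta2 stood at 5.14, 8.23 and 34.7 CPM in LV and 42.1, 61.7 and 73.3 CPM in SM (-2.41 ± 0.43). Of 8 genes of the cardiac conduction system, 3 were higher and 4 lower in LV, with 1 and 3 past 2-fold, and of 4 adipocyte genes 1 was higher, past 2-fold, and 1 lower. Wt1, an epicardial marker and 1 of 2 tested, ranged over 5.17, 6.76 and 10.1 CPM in LV and 0, 0 and 0.155 CPM in SM. Of 11 atrial genes tested, with rat 26 included, 5 were higher and 4 lower in LV, with 5 and 1 past 2-fold. Myl4, not called there, was lower without rat 26 (-2.71). The 12 on the list summed to 1945 CPM in the LV of rat 26, 192 to 579 in the other 6 and 52.3 to 60.1 in SM, and Bmp10, a defining one, was at most 0.0517 CPM in any of these libraries. Shares called were 77.8% for tendon, 66.7% for nerve, 83.3% for red cell and 66.7% for mural genes. They were 87.5% for conduction, 50% for adipocyte, 50% for epicardial and 81.8% for atrial genes, against 78.3% of all genes. What part these cells had in the differences above was not tested.

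The trained pairs were last set beside the 7 sedentary pairs, which come from other rats. In sedentary rats 11174 of 14367 genes (77.8%) were called and 3728 (25.9%) were past 2-fold. Among 14187 genes that entered both tests, 10323 had the same called direction in trained and in sedentary rats, which is 92.9% of the trained and 93.3% of the sedentary calls, and 0 were called in opposite directions. Across those genes the fold changes had a Pearson r of 0.989, given as a description because genes are not independent replicates. The test of the difference itself, whether LV minus SM changed with training, called 0 of 15049 genes (0.0%) in edgeR, with 547 (3.63%) at an unadjusted p under 0.05, and DESeq2 also called 0.

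For 3 genes of the groups above the values in both arms are given side by side. Myh6 differed by 10.94 ± 0.34 in trained and 10.90 ± 0.17 in sedentary rats, Ryr1 by -13.62 ± 0.24 and -13.48 ± 0.23, and Lpl by 2.57 ± 0.11 and 2.54 ± 0.09. Other genes, chosen after their values were seen, had values further apart: Wt1 7.55 ± 0.36 and 11.34 ± 0.37, Myh4 -20.07 ± 0.42 and -21.75 ± 0.31, and Thbs4 -5.45 ± 0.80 and -4.27 ± 0.47. Wt1 had no count in any sedentary SM library, so its fitted value there depends on the prior count. Myh4 was near 0 in trained LV, so its fitted value and error there rest on few counts. The smallest adjusted p for a difference between arms in edgeR was 0.0917, for Apob, a liver apolipoprotein, whose highest sedentary LV library held 175 CPM against a group median of 0.0661. The liver gene Alb reached 1051 CPM in that group, and in trained LV its highest library held 22.99 CPM.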

How the data were processed

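RNA-seq of whole left ventricle and red gastrocnemius was compared in 7 trained rats. The authors deposited count tables of raw, whole-number reads per Ensembl gene, 1 table per tissue. Per the submitters' processing notes, FastQC 0.74, cutadapt 4.6, STAR 2.7.11a, HTSeq and build mRatBN7.2 were used. Strand and counting settings are not given in the sources used here. Per the labels' protocols, LV and SM libraries came from different kits.

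Counts of both tissues were joined by gene identifier. After filterByExpr and TMM scaling, edgeR 4.0.16 (quasi-likelihood, robust, with limma 3.58.1 in R 4.3.3) fitted rat and tissue, with Benjamini-Hochberg adjustment at 0.05 and glmTreat against a log2 difference of 1. The arms were compared in 1 fit with rats nested in arm. Library shares were tested by exact sign flips over pairs. Pairs were taken from the rat numbers, because the design text says that LV came from a subset of the same animals. Deviations from group means correlated at -0.0597 to 0.171 between tissues of 1 trained rat. The median was -0.0198, against -0.00629 between tissues of different trained rats. Of the 7 LV libraries, 2 correlated best with the SM library of their own number, so the pairing rests on the labels. DESeq2 1.42.0, other scalings and filters, no block and leaving out each rat were alternatives. Python 3.11.15 (pandas 2.3.3, numpy 2.4.6, scipy 1.17.1) made tables and figures.

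On simulated data for LV_ExT versus SM_ExT, the test recovered 96 of 100 genes changed by 1 on the log2 scale and 100 of 100 changed by 2, and called 11 of 12494 unchanged genes. The simulation used SM_ExT means and spread for both tissues and no rat effect, with as many genes raised as lowered. It therefore does not give the error rate of a comparison in which most genes differ, as here. Members and gene lists were chosen with earlier results of these data known. Genes were named if they define a list, if they were among the 3 largest changes of a list in either direction at a mean of at least 5 CPM in either tissue, or among the 10 largest of all genes in either direction. Further genes in the text were chosen after their values were seen. Each library of a tissue carries its own rat number. Intervals and floors of 3 counts over a group cover counting error only. A total of 47 listed symbols were not matched in the tables and are not analysed here, and some genes are not reported.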

Additional observations from a re-analysis of the deposited data

Results flagged for a closer look

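A library was listed when its distance to the nearest of the other 6 in its group exceeded Dixon's 95% critical share of the group's range. Of 346 groups of libraries examined, 26 met this, where chance alone lists about 1 in 20 (17.3 here). Rat 26 held 7 of the 26, all in LV, rat 14 held 9 and rat 17 held 6.

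In the LV of rat 26 the highest values were Myl4 (217 CPM), Myl7 (606 CPM), Sln (15.1 CPM), Tbx5 (13.6 CPM), Neb (24.8 CPM), Mybpc1 (0.876 CPM) and AABR07005775.1 (0.710 CPM). The first 4 are on the atrial list, and the other 3 are genes of limb muscle or an unnamed locus. The log2 fold changes of Nppa were 14.13 with rat 26 and 13.02 without it, and those of Tbx5 10.31 and 10.06.

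In the SM of rat 14 the highest values were Mt-atp6 (9337 CPM), Mt-co2 (4642 CPM), Mt-co3 (6210.5 CPM), mitochondrial tRNA (0.00815% of counts), Ndufb4 (65.5 CPM) and Kcnip2 (1.08 CPM), and the lowest were Esrra (5.74 CPM) and Slc8a1 (17.4 CPM). In the LV of rat 14 Tnnt3 was highest (2.60 CPM). In rat 17 the LV library was highest for Ryr2 (4215 CPM), Hand2 (7.85 CPM), Fbxo32 (132 CPM), Stac3 (0.241 CPM) and the protein-coding share (98.6%), and the SM library for Fgf16 (0.999 CPM).

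In SM, rat 27 was highest for Pecam1 (117 CPM), and rat 18 was lowest for Thbs4 (36.0 CPM). In LV, rat 28 was highest for Chrnb1 (0.665 CPM) and rat 25 for Tnnc1 (1652.5 CPM). No gene passed the test of a different tissue effect in trained and sedentary rats.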

How the results depend on the processing

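Of 183 genes named and tested, 167 kept direction and call in every setting tried. Called genes numbered 11224, and 10872 to 11137 with each rat left out, 11170 in DESeq2 and 12805 of 22301 with no filter. Genes called both as first fitted and in another setting had the same direction in all of them. Without the replicate block, 11363 genes were called (3739 past 2-fold) in trained and 11301 in sedentary rats, and 0 for the difference between arms. Of the genes named, this ended the calls of Sln (-0.58, edgeR adjusted p = 0.655) and Per2 (-0.60), gave one for Ttn (-0.36), and turned Myl4 to 2.17 (edgeR adjusted p = 0.176), also no call. No other call among the genes named changed with the block. With library totals alone, 60.0% of calls were higher in LV against 50.1%, and Acadm (0.13) and Fbxo32 (0.10) changed sign, neither with a call before or after. With each rat left out, Acadm ranged from -0.13 to 0.0306, Igf1 from -0.0598 to 0.13 and Hoxb2 from -0.0595 to 0.27, with no call. Sln lost its call with no filter (-3.41) and when thinned (-2.94).

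With a rat left out, 6 pairs allow no exact p under 0.03125, and after adjustment nearly every share missed the threshold, by construction. The ranges were 11.6 to 13.4 percentage points for the mitochondrial genome, 12.5 to 14.4 for its rRNA, -0.00517 to -0.00451 for its tRNA, 0.247 to 0.258 for lncRNA, -0.0542 to -0.0380 for misc_RNA, 0.0971 to 0.106 for pseudogenes, -0.499 to -0.316 for nuclear rRNA and -0.0499 to 0.137 for protein-coding genes, which alone changed sign. The mitochondrial share was 0.481 points higher in LV with its rRNA and tRNA left out. Leaving out the 10 most abundant genes turned the ribozyme share from 0.0602 to -0.00395. At 5 counts instead of 10, LV had 239 fewer genes detected (-238.6 of the thinned libraries, exact permutation adjusted p = 0.0430), against 77.7 fewer (-77.7). The cause of these changes was not tested.

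Kit and tissue differ together, which limits every value here. SM libraries are shallower than those of LV, so a gene at 0 in SM is bounded less tightly.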
